A study of Mus musculus with 14 samples.

Results

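Chemokines are small secreted proteins that draw white blood cells into tissues, and 10 of their genes (Ccl2, Ccl3, Ccl4, Ccl6, Ccl7, Ccl9, Cxcl1, Cxcl10, Cxcl12 and Cxcl14) were followed through brown adipose tissue of 14 mice. The genes were chosen by name, among 35275 genes in the expression table, to ask what may recruit immune cells. Symbols were matched to the Ensembl gene identifiers of the table, and all 10 were found. The animals were C57BL/6 mice, 8 weeks old. Knockouts carried floxed Lrpprc alleles and the Ucp1-Cre transgene (LrpprcFF Ucp1-Cre), so that Lrpprc is deleted where the Ucp1 promoter is active, which is chiefly in brown adipocytes. Lrpprc encodes a protein that stabilises messenger RNAs of mitochondria. Controls were floxed animals without Cre (LrpprcFF). Housing was at 22 °C, called room temperature, for 4 animals of each genotype. It was at 30 °C, called thermoneutrality, for 3 of each, a temperature at which mice need no extra heat production. No group carries Cre without floxed alleles. Brown adipocytes are the labelled cell type, but RNA came from homogenized tissue, so every cell type of the depot contributes.

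Lrpprc ranged between 23.2 and 47.1 FPKM in the controls and between 5.95 and 12.5 FPKM in the knockouts, so that no knockout reached the level of any control. Here FPKM are read fragments per gene, adjusted for its length and for sequencing depth, and the libraries held 15.9 to 21.3 M fragments. Ucp1 and Cidea, markers of brown adipocytes, had group means of at least 367 and 994 FPKM. Xist was at 9.01 to 18.4 FPKM in the animals at 30 °C and at most 0.0141 FPKM in those at 22 °C, while Y-linked Ddx3y was at 14.5 to 23.1 FPKM at 22 °C and at most 0.0244 FPKM at 30 °C. Temperature and sex-linked expression therefore cannot be told apart, and the contrasts between genotypes are given within a temperature. Transcripts of skeletal muscle varied widely, with the summed FPKM of 8 muscle markers running from 32.4 to 11239.9 among the controls at 30 °C alone. Animals are numbered within a group in the order of deposition, and the numbers pair nothing. The labels do not state that animals of a group came from separate litters.

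Chemokines bind G protein-coupled receptors on leukocytes and form gradients that these cells follow. CC chemokines such as Ccl2 and Ccl7 act on Ccr2 of monocytes, whereas Cxcl1 acts on Cxcr2 of neutrophils and Cxcl10 on Cxcr3 of activated T and NK cells. Cxcl12 acts on Cxcr4 and is made by stromal cells without inflammation, while most of the others are induced through NF-kappaB or interferon signalling. In adipose tissue, chemokines are made by adipocytes, stromal cells and resident macrophages.

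Several members are neighbours in the genome. In the order of protein-coding genes on mouse chromosome 11, Ccl2 lies next to Ccl7, and Ccl9, Ccl6, Ccl3 and Ccl4 follow each other without another protein-coding gene between them. Cxcl1 lies next to Cxcl2 on chromosome 5. RefSeq upstream sequence (GRCm38.p6) was at hand for 7 of the 10 members. The 250 bases before the start site are shown for 4 genes: Cxcl1, the highest of whose values were in 30 °C knockouts, Cxcl10, the 1 member with no range overlap between genotypes at 22 °C, and Ccl6 and Ccl9, adjacent genes whose levels moved together. Capitals mark matches, on either strand, to GGG and TTCC with any 3 bases between them (a form of the kappaB motif), to GAAA and GAAA with any 2 bases between them (a form of the interferon-stimulated response element) or to AGGAAG (an ETS-family core, which PU.1 of macrophages also binds). The sequences run 5′ to 3′ on the strand of the gene. They lie at chr5:90890995-90891244 (plus strand), chr5:92348890-92349139 (minus), chr11:83593088-83593337 (minus) and chr11:83578637-83578886 (minus).
Cxcl1: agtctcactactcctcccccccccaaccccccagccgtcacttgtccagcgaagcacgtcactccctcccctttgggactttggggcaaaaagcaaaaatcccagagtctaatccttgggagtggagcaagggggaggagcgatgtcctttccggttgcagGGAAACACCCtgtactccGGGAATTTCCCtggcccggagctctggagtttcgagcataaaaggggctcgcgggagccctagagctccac
Cxcl10: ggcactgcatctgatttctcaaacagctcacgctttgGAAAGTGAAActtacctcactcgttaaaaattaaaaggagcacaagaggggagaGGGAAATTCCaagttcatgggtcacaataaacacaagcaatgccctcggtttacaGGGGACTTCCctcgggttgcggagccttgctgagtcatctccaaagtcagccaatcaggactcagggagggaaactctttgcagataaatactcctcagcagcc
Ccl6: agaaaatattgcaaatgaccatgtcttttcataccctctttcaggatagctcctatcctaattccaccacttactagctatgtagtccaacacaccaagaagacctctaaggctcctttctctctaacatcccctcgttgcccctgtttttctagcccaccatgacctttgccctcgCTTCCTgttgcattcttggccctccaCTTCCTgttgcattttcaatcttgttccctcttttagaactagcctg
Ccl9: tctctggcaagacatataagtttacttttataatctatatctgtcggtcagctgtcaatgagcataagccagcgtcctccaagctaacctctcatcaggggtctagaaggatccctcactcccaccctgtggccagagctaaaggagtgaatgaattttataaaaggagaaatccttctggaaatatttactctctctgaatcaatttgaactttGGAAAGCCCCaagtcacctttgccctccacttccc

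Cxcl1 held the overlapping kappaB matches GGGAATTTCC and GGAATTTCCC from position -71 to -61 and another match, GGAAACACCC, from -89 to -80, counted from the start site. Cxcl10 held GGGAAATTCC from -159 to -150 and GGGGACTTCC from -104 to -95, besides the interferon-type match GAAAGTGAAA from -213 to -204. Ccl6 held CTTCCT, the ETS core read on the other strand, at -73 to -68 and again at -47 to -42. Ccl9 held 1 kappaB match, GGAAAGCCCC, from -35 to -26. Of 32817 RefSeq promoters of this length, 4.65% held the kappaB form, 2.97% the interferon form and 29.5% the ETS core. Among the 7 member promoters, 3 held the kappaB form, 2 the interferon form (Cxcl10 and Cxcl14) and 1 the ETS core. The kappaB letters were narrowed after these sequences had been read: a looser form, GGG and CC with any 5 bases between them, was in 45.8% of all promoters and in 4 of the 7. The longest run shared by the Ccl6 and Ccl9 promoters was 13 bases, gccctccacttcc, against 6 to 10 bases in the other 20 pairs of members. A match describes letters and does not show binding.

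At 30 °C, 6 of the 10 chemokine transcripts were higher in knockouts than in controls, and none was called lower. These were the monocyte attractants Ccl2 and Ccl7, the myeloid chemokines Ccl6 and Ccl9, the neutrophil attractant Cxcl1, and Cxcl14. Ccl6 and Ccl9 had the largest changes. In the same comparison 8.82% of 13079 tested genes were called higher, by limma with a Benjamini-Hochberg adjusted p under 0.05. At 22 °C, 0 of the 10 members were called by limma, against 1.97% of all genes in either direction, and 3 members had an unadjusted p under 0.05. Limma voom on recovered reads called 0 members at 22 °C and 4 at 30 °C, beside 148 and 1572 of 12801 genes. Testing needed at least 1 FPKM in at least 3 of the 14 animals. Ccl3 did not reach this. Ccl4, Ccl7 and Cxcl1 reached it only with the 30 °C knockouts counted, so they entered the test through the group where they are high, and counts over the 9 that passed are a description. In the limma fit without this filter, 4 members were called at 30 °C, beside 1663 of 24190 genes. Ccl7 and Cxcl1 were not among them (adjusted p = 0.0598 and 0.0569). Fold changes are on the scale of log2(scaled FPKM + 1), which understates changes of weakly expressed genes, and in whole tissue more cells of a type and more RNA per cell cannot be told apart.

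**Figure D1:**
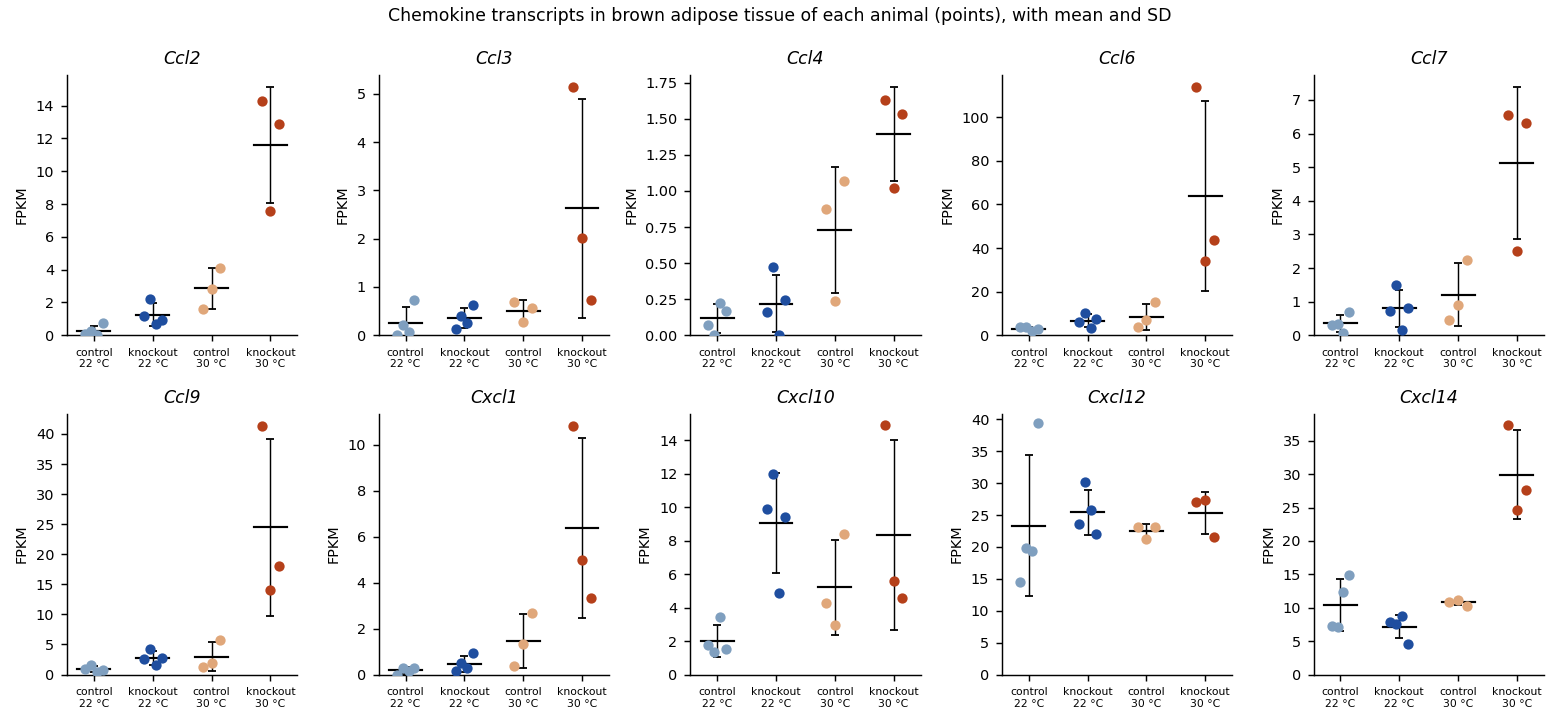
FPKM of the 10 chemokine genes in each of 14 animals (points), by genotype and housing temperature, with the group mean (horizontal line) and SD (bars), each panel on its own linear axis from 0. In these FPKM as deposited, knockouts at 30 °C stand above all other animals for Ccl2, Ccl6, Ccl7, Ccl9, Cxcl1 and Cxcl14. For Ccl7 this does not hold after the scaling used in the fit. Cxcl12 is between 14.5 and 39.5 FPKM throughout.

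Ccl2, also called MCP-1, recruits monocytes through Ccr2. In the controls at 22 °C it was 0.089, 0.244, 0 and 0.722 FPKM, which were 2, 5, 0 and 14 reads. The knockouts at 22 °C had 1.17, 2.24, 0.688 and 0.929 FPKM. At 30 °C the controls had 1.63, 2.79 and 4.13 FPKM, and the knockouts 14.3, 7.59 and 12.9 FPKM. The groups at 30 °C did not overlap, and even the lowest 30 °C control lay above 3 of the 4 knockouts at 22 °C. Ccl2 was 1.47 ± 0.31 (SE) log2 units higher in knockouts at 30 °C (limma, adjusted p = 0.00895, n = 3 and 3). At 22 °C the difference was 0.73 ± 0.27 (adjusted p = 0.194, n = 4 and 4), and the ranges touched through the control at 0.722 FPKM.

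Ccl7, or MCP-3, acts on the same receptor and followed Ccl2 closely. It was 0.305, 0.334, 0.0612 and 0.705 FPKM in controls at 22 °C and 0.733, 1.5, 0.157 and 0.802 FPKM in knockouts at 22 °C. At 30 °C it was 0.459, 0.907 and 2.25 FPKM in controls and 6.56, 2.51 and 6.30 FPKM in knockouts. Knockout 2 at 30 °C was the lowest of its group for both Ccl2 and Ccl7. For Ccl7 it stood only just above the highest control in FPKM as deposited. The scaling used in the fit divides these 2 libraries by 1.2 and 0.947, which puts the knockout below that control. The knockout difference at 30 °C was 1.27 ± 0.35 log2 units (limma, adjusted p = 0.0315). It was called in 5 of 13 alternative fits. Over the 14 animals, deviations from the group means correlated between Ccl2 and Ccl7 with Pearson r = 0.94 (Spearman rho = 0.91, and r = 0.93 without the 2 animals farthest from the median of Ccl2). Of all tested genes, Ccl7 was the most like Ccl2, followed by C1qc, a complement gene of macrophages, with r = 0.92. Both genes come from 1 library per animal, so this is a description of these 14 libraries.

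Ccl6 and Ccl9 are CC chemokines of the myeloid lineage that act on Ccr1. Ccl6 was 3.63, 3.80, 2.14 and 2.75 FPKM in controls at 22 °C, and 6.05, 10.1, 3.31 and 7.48 FPKM in knockouts at 22 °C. At 30 °C, controls had 3.57, 6.96 and 15.1 FPKM and knockouts had 114, 34.0 and 43.5 FPKM. The lowest knockout at 30 °C was above the highest control of either temperature. The mean was 8.56 ± 5.95 FPKM in controls and 64.0 ± 43.9 FPKM in knockouts (SD, n = 3 each), a ratio of 7.48. The ratio was 4.53 without knockout 1 and 12.2 without control 3. In limma the difference was 2.47 ± 0.49 log2 units (adjusted p = 0.00672).

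Ccl9 was 0.909, 1.66, 0.489 and 0.771 FPKM in controls and 2.52, 4.30, 1.57 and 2.76 FPKM in knockouts at 22 °C. At 30 °C, controls had 1.26, 1.85 and 5.71 FPKM and knockouts 41.3, 14.1 and 18.0 FPKM. As for Ccl6, knockout 1 was the highest and control 3 stood above the other controls at 30 °C. The difference at 30 °C was 2.45 ± 0.44 log2 units (limma, adjusted p = 0.00394), and it was called in each of 13 alternative fits. At 22 °C the differences were 0.62 ± 0.43 for Ccl6 (adjusted p = 0.523) and 0.76 ± 0.38 for Ccl9 (adjusted p = 0.352). Ccl9 was the gene most like Ccl6 over the 14 animals (Pearson r = 0.97, Spearman rho = 0.94, r = 0.93 without the 2 farthest animals). After Ccl6, the genes most like Ccl9 were Lyz2, the lysozyme of macrophages and neutrophils (r = 0.96), and Lair1, an inhibitory receptor of leukocytes (r = 0.95). Ccl6 and Ccl9 are close relatives in sequence, and the counting of reads that fit more than 1 gene is not given in the sources used here.

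Ccl3 and Ccl4, the macrophage inflammatory proteins, were among the weakest members. Ccl3 was at 0 to 0.738 FPKM in the controls at 22 °C and 0.139 to 0.629 FPKM in the knockouts. At 30 °C it was 0.685, 0.271 and 0.569 FPKM in controls and 5.14, 2.02 and 0.732 FPKM in knockouts. Its ranges at 30 °C lay apart by little in FPKM as deposited and overlap after the scaling used in the fit. Knockout 1 set most of the mean. In the fit without a filter on low values the difference was 0.93 ± 0.36 log2 units (limma, adjusted p = 0.153). Ccl4 was 0.875, 0.236 and 1.07 FPKM in controls and 1.63, 1.02 and 1.53 FPKM in knockouts at 30 °C, with overlapping ranges. Its difference was 0.35 ± 0.20 (adjusted p = 0.298), and its 22 °C values were all below 0.5 FPKM.

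Cxcl1, the mouse counterpart of the human GRO chemokines, attracts neutrophils. It was 0, 0.281, 0.154 and 0.296 FPKM in controls and 0.168, 0.492, 0.264 and 0.955 FPKM in knockouts at 22 °C, which is at most 17 reads. At 30 °C it was 0.386, 1.31 and 2.69 FPKM in controls and 10.8, 4.99 and 3.35 FPKM in knockouts. The groups at 30 °C did not overlap. The difference was 1.35 ± 0.37 log2 units (limma, adjusted p = 0.0297) and was called in 6 of 13 alternative fits. Its neighbour Cxcl2, another neutrophil attractant outside the 10 members, had group means of 0.271 FPKM in controls and 2.33 FPKM in knockouts at 30 °C. Its difference was 1.2 ± 0.21 log2 units (limma, adjusted p = 0.00362), but it passed the filter only through the 30 °C knockouts, so this is a description.

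Cxcl10, or IP-10, is induced by interferon and attracts Cxcr3-bearing T and NK cells. It was 1.74, 1.32, 3.45 and 1.5 FPKM in controls at 22 °C and 9.91, 12, 4.88 and 9.45 FPKM in knockouts at 22 °C. Every knockout was above every control, and the ratio of the means was 4.53. The difference was 1.51 ± 0.37 log2 units with an adjusted p of 0.0543 (limma), just above the threshold, and it was called in 6 of 16 alternative fits. At 30 °C the controls had 4.27, 2.94 and 8.42 FPKM and the knockouts 14.9, 5.57 and 4.56 FPKM. These ranges overlapped, and the difference was 0.27 ± 0.42 (adjusted p = 0.727, 95% interval -0.64 to 1.18). The difference between the 2 knockout effects was 1.24 ± 0.56 log2 units (adjusted p = 0.371), so the effect is not shown to depend on temperature.

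Cxcl12, or SDF-1, retains and attracts Cxcr4-bearing cells and was the most abundant member in 3 of the 4 groups. It was 14.5, 19.9, 19.3 and 39.5 FPKM in controls and 23.6, 30.2, 25.8 and 22.1 FPKM in knockouts at 22 °C. At 30 °C it was 23.1, 21.2 and 23.2 FPKM in controls and 27.1, 27.4 and 21.5 FPKM in knockouts. All groups overlapped. The knockout difference was -0.08 log2 units at 22 °C (95% interval -0.52 to 0.36) and -0.13 at 30 °C (-0.64 to 0.38), after scaling. On FPKM as deposited its sign turned, to 0.21 at 22 °C and 0.16 at 30 °C. Without scaling the median tested gene shifts by 0.24 and 0.31 log2 units in these 2 comparisons.

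Cxcl14 is a chemokine of epithelia and adipose tissue whose main receptor is debated. It was 7.28, 7.08, 12.3 and 14.9 FPKM in controls and 7.82, 7.58, 8.72 and 4.64 FPKM in knockouts at 22 °C. At 30 °C it was 10.9, 11.2 and 10.3 FPKM in controls and 37.4, 24.6 and 27.7 FPKM in knockouts. The 30 °C knockouts were all at least 24.6 FPKM, above every other animal. Their difference from controls was 1.08 ± 0.25 log2 units (limma, adjusted p = 0.0136). Without knockout 1 it was 0.89 and no longer called (adjusted p = 0.0676). At 22 °C the difference was -0.71 ± 0.22 (adjusted p = 0.121). The controls at 12.3 and 14.9 FPKM are those whose identifiers begin with another letter, and without them the difference was -0.34 (adjusted p = 0.391). The 2 effects differed by -1.80 ± 0.33 log2 units (adjusted p = 0.0902), the closest to a call among the members. It was called with sample weights (adjusted p = 0.0242) and without 30 °C knockout 2 (adjusted p = 0.0359), and in no other of 21 alternative fits.

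**Figure D2:**
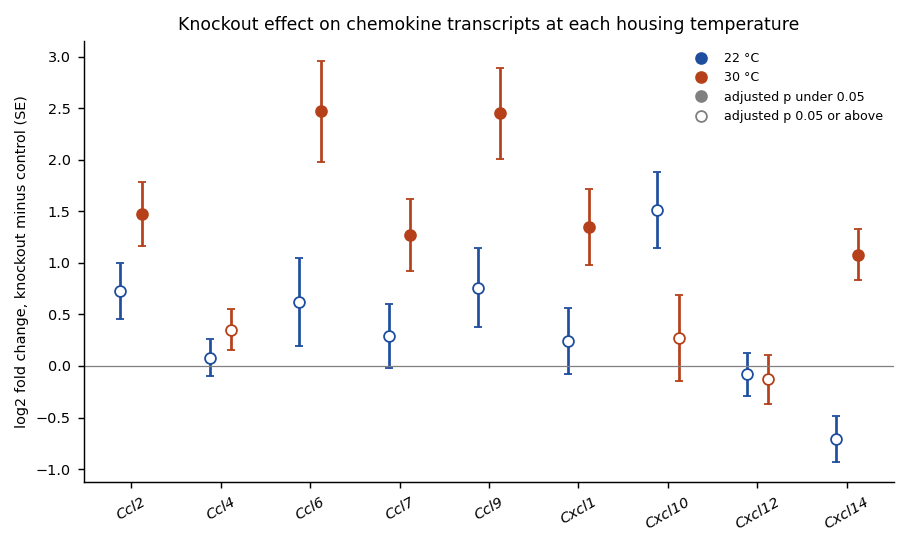
Log2 fold change of knockout over control on the log2(scaled FPKM + 1) scale, with SE, for the 9 chemokine genes that passed the filter, at 22 °C (blue) and 30 °C (orange). Filled points have an adjusted p under 0.05: 6 at 30 °C and 0 at 22 °C.

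For the difference between the knockout effects at the 2 temperatures, 0 of the members and 0% of all 13079 genes were called by limma. Of all genes, 1694 had an unadjusted p under 0.05, among them 5 members, and limma voom on recovered reads also called 0 genes. A member called at 30 °C and not at 22 °C is therefore not shown to respond differently between the temperatures.

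Between temperatures, 7 members were lower at 22 °C than at 30 °C among knockouts (Ccl2, Ccl4, Ccl6, Ccl7, Ccl9, Cxcl1 and Cxcl14), where 29.4% of all genes were called lower. Ccl4, Ccl7 and Cxcl1 passed the filter only with the 30 °C knockouts counted, the higher group here, so the count of 7 is a description. Each of the 7 was called in every alternative fit run for it, the fit without the filter among them. Among controls 3 were lower at 22 °C (Ccl2, Ccl4 and Cxcl1), where 20.6% of all genes were called lower. In controls Ccl2 was called in 15 of 15 alternative fits, Ccl4 in 9 of 14 and Cxcl1 in 5 of 14. Ccl2 was -1.62 ± 0.29 log2 units in controls (adjusted p = 0.00146) and -2.36 ± 0.29 in knockouts (adjusted p = 7.91e-05). Cxcl14 differed by -0.02 ± 0.24 in controls and by -1.82 ± 0.24 in knockouts (adjusted p = 0.951 and 0.000105). These comparisons use the groups already compared between genotypes, and the 22 °C and 30 °C animals also differ in sex-linked transcripts.

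The order of the members differed between groups. Cxcl12 led with 23.3, 25.4 and 22.5 FPKM in the means of 22 °C controls, 22 °C knockouts and 30 °C controls. In the 30 °C knockouts Ccl6 led with 64.0 FPKM, followed by Cxcl14 (29.9), Cxcl12 (25.3) and Ccl9 (24.5), and the ranges of neighbours in this order overlapped. Ccl4 or Ccl3 was last in each group. The summed FPKM of the 10 members was 28.5 to 62.1 in controls and 45.6 to 69.3 in knockouts at 22 °C, and 47.1 to 73.5 and 124 to 273 at 30 °C.

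Deviations from the group means also linked members to other genes. Cxcl1 was most like Lpxn, Hmgb2 and Cxcl9 (r = 0.92, 0.91 and 0.90), and Ccl4 most like Gm26587, Ctsc and Sec24d (r = 0.91, 0.88 and 0.86). Cxcl10 was most like Gm15931, Bin3 and Cd83, a marker of mature dendritic cells (r = 0.90, 0.90 and 0.87). Cxcl12 was most like Armcx2, Adamts7 and Slc28a2 (r = 0.98, 0.98 and 0.97), and Cxcl14 most like Ppp1r35, Vwa1 and Usf1 (r = 0.95 for each). Between members, Cxcl12 and Cxcl14 stood apart from Ccl6 and Ccl9, with r from -0.05 to 0.07. All these values are Pearson correlations over 14 animals and describe these libraries.

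Most macrophage and monocyte markers were called higher in knockouts at 30 °C, as were 6 of the chemokines. Of 14 markers, 13 passed the filter. At 30 °C 10 were called higher in knockouts, beside 8.82% of all genes (1 of them, Fcgr1, passed the filter only with these knockouts counted). At 22 °C 0 were called, and 5 had an unadjusted p under 0.05 (limma). Cd14, Plac8 and Mertk were not called at 30 °C (0.62, 0.55 and 0.15 log2 units, adjusted p = 0.117, 0.242 and 0.699). Ly6c2, a monocyte marker, was not tested, with means of 0.854 FPKM in controls and 0.932 FPKM in knockouts at 30 °C. Lyz2 rose from 109 to 695 FPKM in the mean at 30 °C, and Cd68, a lysosomal protein of macrophages, from 12.7 to 102 FPKM. The summed FPKM of the 14 was 60.4 to 103 in controls and 125 to 274 in knockouts at 22 °C, without overlap, and 143 to 455 and 856 to 2256 at 30 °C. Within each 30 °C group the animals had 1 order for the marker sum, Ccl6 and Ccl9: knockout 1 (2256) and control 3 (455) were the highest of their groups. The 22 °C knockouts also shared 1 order. The 22 °C controls did not: control 4 had the highest sum (103) but 2.75 FPKM of Ccl6, below controls 1 and 2 (3.63 and 3.80 FPKM). Lyz2 alone made up 25.4 to 51.2% of the sum.

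Set against this sum, Ccl6 came to 4.0, 3.82, 3.19 and 4.09 per 100 FPKM of macrophage markers in the means of 22 °C controls, 22 °C knockouts, 30 °C controls and 30 °C knockouts. Ccl9 came to 1.21, 1.58, 1.04 and 1.60, and at 30 °C the knockouts (1.33 to 1.83) lay above the controls (0.879 to 1.26). Ccl7 came to 0.414, 0.423, 0.435 and 0.350, and Ccl3, with few reads at 22 °C, to 0.262, 0.205, 0.250 and 0.173. Ccl2, Cxcl1 and Cxcl12 varied more. Ccl2 had means of 0.282, 0.696, 1.19 and 0.826, Cxcl1 of 0.206 to 0.521, and Cxcl12 of 28, 15.6, 10.9 and 2.0. For Cxcl10 the means were 2.66, 5.31, 2.14 and 0.550, and the 30 °C knockouts (0.338 to 0.661) lay below all other animals. Per 100 FPKM of 9 fibroblast and progenitor markers, Cxcl14 came to 4.40, 2.32, 3.37 and 3.54. Of those 9 markers, 6 were called higher in knockouts at 30 °C, among them Col1a1, a collagen chain, at 1.77 ± 0.30 log2 units (limma, adjusted p = 0.00327). The part of these cells in the chemokine differences was not tested.

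**Figure D3:**
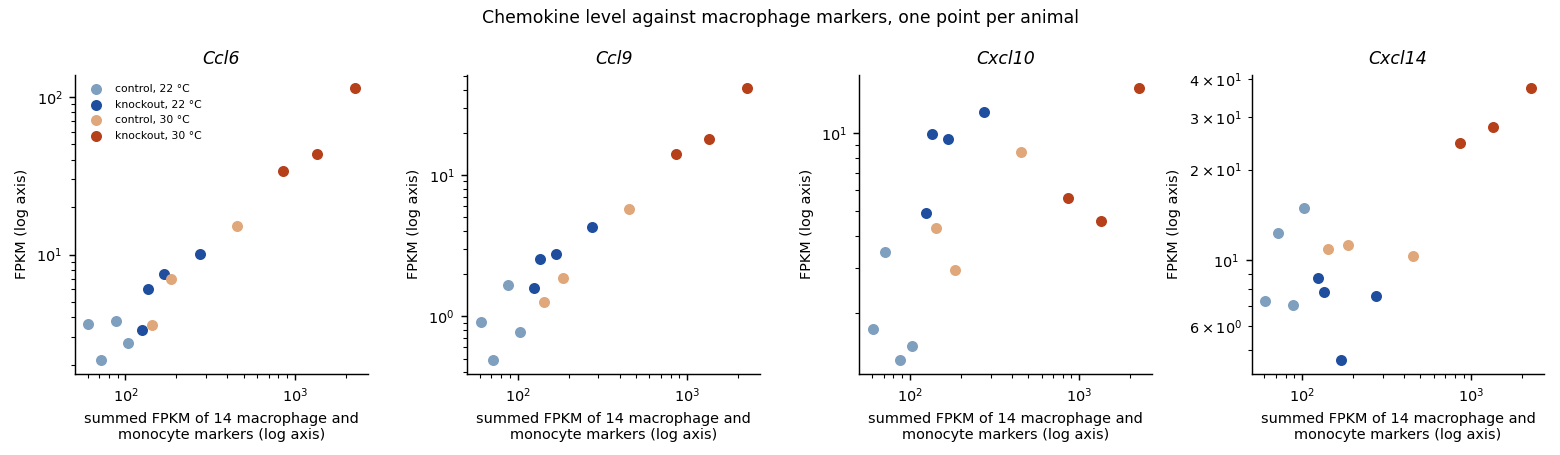
FPKM of Ccl6, Ccl9, Cxcl10 and Cxcl14 against the summed FPKM of 14 macrophage and monocyte markers, 1 point per animal, both axes logarithmic, coloured by group. Ccl6 and Ccl9 are highest where the marker sums are highest, but do not follow them among the 22 °C controls (sums of 60.4 to 103). Cxcl10 is high in the 22 °C knockouts, whose marker sums are 125 to 274.

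Few markers of other leukocytes were called. Of 8 neutrophil markers, only 3 passed the filter, and 0 of these were called in either knockout comparison by limma (0 at an unadjusted p under 0.05). At 30 °C all 3 differences were positive, with a median of 0.52 log2 units beside 0.06 over all genes. Untested were Ly6g, Mmp8, Ngp, Camp and Retnlg, which stayed below 0.3 FPKM in every group mean. Of 11 T and NK cell markers, 9 passed the filter and 0 of these were called, again with 0 at an unadjusted p under 0.05. Of 6 B cell markers, 3 passed the filter. Among them Cd22 was called higher at 30 °C (1.08 ± 0.25, adjusted p = 0.0128), and it passed the filter only through the 30 °C knockouts. Of 7 endothelial and 8 skeletal muscle markers, 0 were called. Of 5 mesothelial markers, 2 passed the filter and 1, Krt19, was called, lower in knockouts at 30 °C (-2.47, adjusted p = 0.00676). Of 10 brown adipocyte markers, 1 was called lower in knockouts at 22 °C (Adipoq, -0.79, adjusted p = 0.016) and 1 higher (Ppargc1a, a coactivator of mitochondrial genes, 1.14, adjusted p = 0.0411). At 30 °C, 4 were called lower in knockouts at 30 °C: Ucp1, the uncoupling protein, fell by 1.31 log2 units (adjusted p = 0.0302), Cidea by 0.78 (adjusted p = 0.0214) and Adipoq, the adipokine adiponectin, by 1.24 (adjusted p = 0.000877), besides the fatty acid carrier Fabp4 by 0.85 (adjusted p = 0.00901).

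Among 22 chemokine receptors, 9 passed the filter, and those called at 30 °C were higher in knockouts, where 8.82% of all genes were called higher. Cxcr4, the receptor of Cxcl12, rose by 0.68 ± 0.21 log2 units (limma, adjusted p = 0.0461), and Cx3cr1 of monocytes by 0.65 ± 0.18 (adjusted p = 0.0333). Cx3cr1 passed the filter only with the 30 °C knockouts counted. Ccr2, the receptor of Ccl2 and Ccl7, was not called at 30 °C (0.57 ± 0.27, limma, adjusted p = 0.183). Neither was Cxcr3, the receptor of Cxcl10, which went the other way (-0.36 ± 0.32, adjusted p = 0.509). None of the 9 was called at 22 °C by limma, where 1 had an unadjusted p under 0.05. Ackr3, a scavenger of Cxcl12, had the highest receptor level, with group means of 12.3 to 21.7 FPKM.

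Of 26 other chemokine genes, 11 passed the filter, of which 3 were called higher at 30 °C and 1 at 22 °C. Of all genes, 8.82% were called higher at 30 °C and 1.97% in either direction at 22 °C. The median difference of the 11 at 30 °C was 0.02 log2 units, beside 0.06 over all genes, and 6 were positive. Cx3cl1, or fractalkine, a membrane-bound ligand of Cx3cr1, was called at both temperatures. Its means were 0.747 and 5.20 FPKM in controls and knockouts at 22 °C and 6.12 and 20.4 FPKM at 30 °C. The differences were 1.51 ± 0.29 log2 units at 22 °C (limma, adjusted p = 0.022) and 1.28 ± 0.34 at 30 °C (adjusted p = 0.0248). Pf4, a platelet and macrophage chemokine, was higher at 30 °C (1.2 ± 0.36, adjusted p = 0.0401). The other of the 3 was Cxcl2, with the limit of the filter given above.

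Of 16 genes that induce chemokines or report on NF-kappaB, 13 passed the filter. Limma called 1 higher at 22 °C and 3 at 30 °C, beside 1.97% of all genes in either direction and 8.82% higher. Of the 13 differences, 8 were positive at 22 °C and 13 at 30 °C. The difference of Nfkbia was -0.95 ± 0.26 log2 units at 22 °C (limma, adjusted p = 0.0797) and 0.34 ± 0.30 at 30 °C (adjusted p = 0.496). Nfkb2, the p100 subunit and itself an NF-kappaB target, was called at both temperatures: 0.84 ± 0.19 log2 units at 22 °C (limma, adjusted p = 0.0407) and 0.76 ± 0.22 at 30 °C (adjusted p = 0.0359). The cytokine Tnf (0.58 ± 0.18, adjusted p = 0.0461) and the inhibitor Nfkbie (0.87 ± 0.23, adjusted p = 0.0216) were called higher at 30 °C, and Tnf passed the filter only with the 30 °C knockouts counted. Of 18 interferon response genes, 17 passed the filter and 0 were called by limma in either knockout comparison, with 1 at an unadjusted p under 0.05 at 22 °C and 2 at 30 °C. Their median difference at 22 °C, where Cxcl10 was 1.51 log2 units higher, was 0.06, beside 0.00 over all genes. Isg15, a ubiquitin-like protein induced by interferon, was 3.06 and 5.63 FPKM in controls and knockouts at 22 °C. Its difference there was 0.47 ± 0.22 log2 units after scaling and was not called (limma, adjusted p = 0.315).

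**Figure D4:**
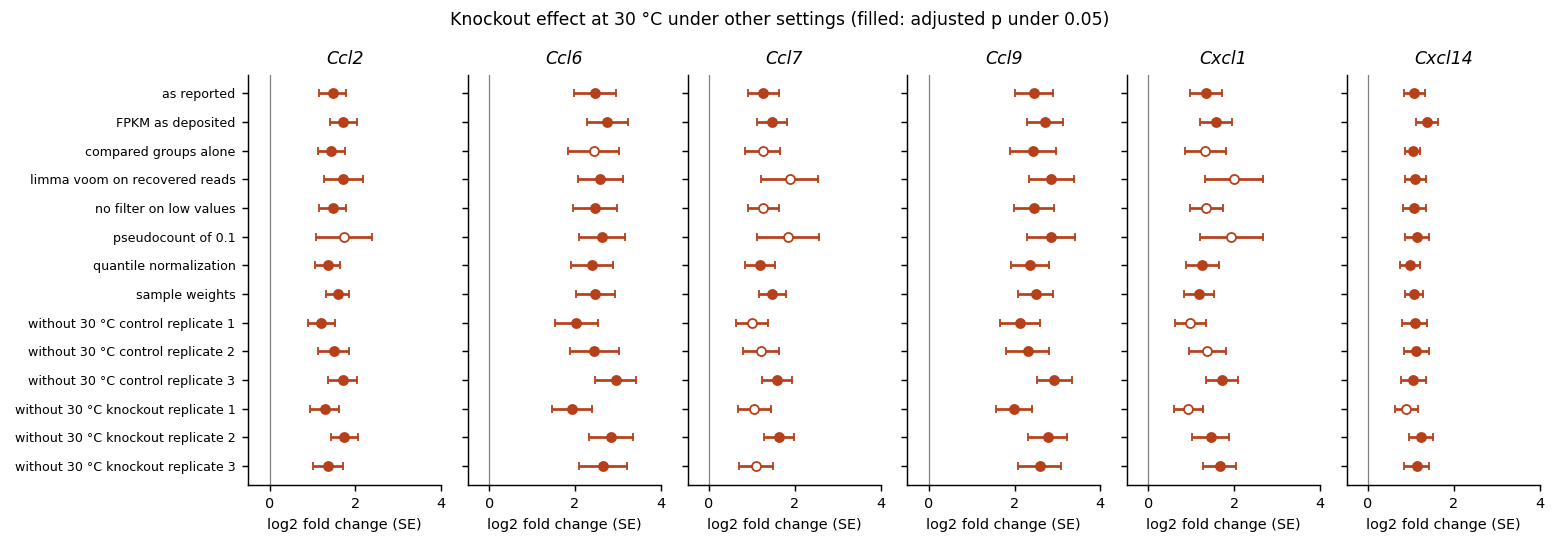
Log2 fold change of knockout over control at 30 °C, with SE, for the 6 chemokine genes called there, in the fit as reported (top) and under 13 alternative fits (rows). Filled points have an adjusted p under 0.05: all rows for Ccl9, all but 1 alternative for Ccl2, Ccl6 and Cxcl14, and 5 and 6 alternatives for Ccl7 and Cxcl1.

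Leaving out animals or changing settings altered the count of 6 at 30 °C. It was 3 without 30 °C knockout 1, 3 with a pseudocount of 0.1 and 3 when the 30 °C groups were fitted alone. Of all genes, 815, 1623 and 1223 were called in these fits, beside 1845 in the fit as reported. No alternative turned the direction of any of the 6.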

How the data were processed

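RNA sequencing values of brown adipose tissue from 14 mice were used as deposited. The authors deposited FPKM per Ensembl gene, with a column per animal. The submitters' processing notes name mm9, and the aligner, counting tool and use of strand are not given in the sources used here. Low values of a gene are multiples of 1 read, and whole reads (within 0.02) were found for 98.6% of genes above 0, giving 15.9 to 21.3 M fragments per library. Groups came from genotype and temperature in the labels. Identifiers of 2 of the 22 °C controls begin with R and all others with E.

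Genes with at least 1 FPKM in at least 3 of 14 animals were kept (13079). Libraries were scaled by the median ratio over nuclear genes expressed in every library, and log2(scaled FPKM + 1) was fitted with 4 group means in limma 3.58.1 (R 4.3.3, eBayes with trend). Benjamini-Hochberg adjustment covered all genes of a comparison, with calls under 0.05. The p-values measure spread between animals only. Scripts were tested on simulated data. Alternatives were a pseudocount of 0.1, no filter, FPKM as deposited, quantile normalization, compared groups alone, sample weights, no R controls and leaving out each animal. Limma voom on recovered reads, the narrower kappaB letters and the rank correlations of 2 gene pairs were chosen after seeing the data.

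The members and gene lists were chosen with earlier results of these data known. Named genes were the members, the called genes of each list with the largest changes (at most 6) and the most abundant (at most 3), the 3 genes most like each member, and Ucp1, Lrpprc and sex-linked genes as checks. The values of 1 listed gene are not reported here. Other named examples were picked with their values in view. Gene symbols came from GENCODE M21, and gene order and promoter sequence from RefSeq (GRCm38.p6). Tables and plots used Python 3.11.15, pandas 2.3.3, numpy 2.4.6 and matplotlib 3.10.9.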

Additional observations from a re-analysis of the deposited data

How the results depend on the processing

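Members called at 22 °C numbered 2 on FPKM as deposited and 2 with sample weights, beside 3248 and 906 of 13079 genes. They numbered 1 with a pseudocount of 0.1 (267 of 13079 genes) and 1 with the compared groups alone (86 of 11946 genes). When animals were left out they numbered 0 to 1. At 30 °C they numbered 3 with a pseudocount of 0.1 (1623 of 13079 genes) and 3 with the compared groups alone (1223 of 12575 genes). With animals left out they numbered 3 to 6, the fewest without knockout 1, where 815 genes were called. Between temperatures they numbered 1 in controls with quantile normalization (4944 of 13079 genes) and 1 with the compared groups alone (3950 of 12012 genes). With animals left out they numbered 1 to 3. For the difference between the knockout effects 1 member was called with sample weights (213 of 13079 genes), and 0 to 1 with animals left out.

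Genes called at 22 °C numbered 258, and 3248 on FPKM as deposited, 906 with sample weights, 148 with limma voom, 130 without a filter and 86 with the compared groups alone. They ran from 71 to 271 with animals left out, the fewest without knockout 2. At 30 °C they numbered 1845, and 4571 on FPKM as deposited, 3652 with sample weights and 1223 with the compared groups alone, and 815 to 2113 with animals left out, the fewest without knockout 1. The share of higher calls was 46.1% at 22 °C and 97.5% on FPKM as deposited, 62.5% and 93.6% at 30 °C, and 48.7% at 30 °C with quantile normalization. For the difference between the knockout effects 0 genes were called, 213 with sample weights, 9 without a filter, 8 with quantile normalization and 6 on FPKM as deposited. They ran from 0 to 135 with animals left out, the most without 30 °C knockout 2. In the temperature comparisons genes called ran from 3485 to 5742 in controls and 5082 to 6426 in knockouts with animals left out.

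Signs turned only for differences that were not called. The knockout difference of Cxcl12 at 22 °C became 0.21 on FPKM as deposited, 0.12 with sample weights, 0.17 without control 4 and 0.21 without the R controls, and at 30 °C 0.16 on FPKM as deposited. That of Ccl4 at 22 °C became -0.007 without knockout 2, and that of Cxcl10 at 30 °C -0.001 without control 2 and -0.21 without knockout 1, with 0.62 the highest value when an animal was left out. Between temperatures in controls, Cxcl12 became -0.048 on FPKM as deposited, -0.092 with sample weights, -0.20 without 22 °C control 4 and -0.24 without the R controls. Cxcl14 became 0.030 with limma voom, 0.029 with quantile normalization, and 0.091, 0.12 and 0.009 without 22 °C control 1, 22 °C control 2 and 30 °C control 2. It was -0.18 at the lowest when 1 animal was left out, -0.32 with sample weights and -0.40 without the R controls. In knockouts Cxcl12 became -0.011 without 30 °C knockout 3. In the difference between the effects, Ccl2 became 1.0 with limma voom and 0.27 with a pseudocount of 0.1, and Cxcl12 -0.11, -0.014, -0.017 and -0.064 without 22 °C control 1, 22 °C control 3, 22 °C knockout 2 and 30 °C knockout 3. It was 0.30 at the highest when 1 animal was left out and 0.34 without the R controls. The cause was not tested. No paired analysis was possible because the labels carry no replicate numbers shared between groups. Depth limits Ccl2, Ccl3, Ccl4, Ccl7 and Cxcl1 at 22 °C, where some libraries held 0 to 5 reads.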
